A study of Homo sapiens with 2 samples.

Results

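The E2F and DP transcription factors are the family through which the cell cycle machinery switches on the genes of the G1/S transition. The 10 genes described here, E2F1 to E2F8 and the DP genes TFDP1 and TFDP2, were taken by name, and every probe whose RefSeq accession pointed to one of them was used, which gave 15 probes and 24 spots. They are 10 of the 21743 genes named on the array. RNA came from MRC-5, a fibroblast line established from human fetal lung, with 1 culture given a control siRNA and 1 culture given a periostin siRNA, each at 10 nM for 48 h. Each culture was read on 1 single-colour Agilent array, so no replicate culture and no test between the conditions is available, no p-value is given, and the errors below cover spots and not cultures. The comparison asks how the signals of these genes differed after knockdown of periostin, a matricellular protein that fibroblasts secrete. The signal of POSTN itself, the gene that the siRNA targets, was 2638 in the control and 280 after periostin siRNA on its 1 spot, 10.6% of the control value.

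An E2F protein binds DNA as a heterodimer with a DP protein, and the pocket proteins RB1, RBL1 and RBL2 hold the dimer in check until cyclin-dependent kinases phosphorylate them. E2F1, E2F2 and E2F3 are the activators that promote G1 and S phase genes. E2F4 and E2F5 act mainly as repressors together with the pocket proteins in resting cells, E2F6 represses with Polycomb group proteins and does not bind pocket proteins, and the atypical E2F7 and E2F8 bind DNA without a DP partner and repress the same kind of genes. Several E2F genes carry E2F sites in their own promoters.

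Promoters are shown for the 5 members in which E2F words were found, whether or not their signal was lower with periostin siRNA. They are the RefSeq sequences of GRCh38.p14, of which the table held 8 of the 10 genes, all but E2F5 and E2F8. The last 150 bases before the annotated start are printed 5' to 3' along the gene, and capitals mark the E2F words TTTCGCGC, TTTGGCGC, TTTCCCGC and TTTGCCGC and the shorter words TTTCGCG and TTGGCGC, each searched on both strands. The shorter words were picked after the sequences were read. TTTCGCG lies inside TTTCGCGC, and TTGGCGC lies inside TTTGGCGC.
E2F1 (chr20:33686386-33686535, minus strand): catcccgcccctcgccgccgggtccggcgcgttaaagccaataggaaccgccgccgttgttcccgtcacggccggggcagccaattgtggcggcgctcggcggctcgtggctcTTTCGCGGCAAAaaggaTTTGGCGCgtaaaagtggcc
E2F2 (chr1:23531234-23531383, minus strand): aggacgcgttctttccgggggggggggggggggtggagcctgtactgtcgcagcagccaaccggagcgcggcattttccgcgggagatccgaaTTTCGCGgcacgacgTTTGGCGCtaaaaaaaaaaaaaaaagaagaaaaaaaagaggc
E2F3 (chr6:20401729-20401878, plus strand): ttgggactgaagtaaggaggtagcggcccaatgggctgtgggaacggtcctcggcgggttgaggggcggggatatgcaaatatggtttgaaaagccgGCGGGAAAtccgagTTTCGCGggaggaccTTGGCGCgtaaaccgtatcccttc
E2F7 (chr12:77065570-77065719, minus strand): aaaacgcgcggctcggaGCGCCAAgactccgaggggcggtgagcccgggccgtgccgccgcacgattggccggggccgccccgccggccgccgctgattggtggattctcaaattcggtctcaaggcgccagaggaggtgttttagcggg
TFDP1 (chr13:113584603-113584752, plus strand): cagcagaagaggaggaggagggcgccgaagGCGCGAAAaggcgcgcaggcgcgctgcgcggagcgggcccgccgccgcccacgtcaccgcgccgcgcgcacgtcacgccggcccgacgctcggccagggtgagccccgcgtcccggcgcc
In all 3 activators the shorter words stood in the same order, with TTTCGCG at -37 in E2F1, -57 in E2F2 and -39 in E2F3, followed on the same strand by TTGGCGC at -19, -41 and -24, counted from the base before the start as -1. E2F7 held GCGCCAA, the reverse complement of TTGGCGC, at -133. TFDP1 held GCGCGAAA, the reverse complement of TTTCGCGC, at -120. None of the words was in the windows of E2F4, E2F6 or TFDP2 or in the other annotated start of E2F3, in the 250 bases before and 50 bases after the start. Of all 35116 promoter windows of this length, 1.32% held TTTCGCG, 3.04% held TTGGCGC and 3.31% held one of the E2F words of 8 letters. The words are letters in a window and not sites shown to be bound.

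With periostin siRNA, the signal was lower for 7 of the 9 family members that could be measured and higher for 2, and the median of their log2 ratios (periostin siRNA over control siRNA) was -0.61. Over all 16052 genes that could be measured the median was 0.06, and 45.5% were below 0. The members lower by more than 3-fold, the threshold of the study (1.58 on the log2 scale), were E2F2, an activator, and E2F5, a repressor. These are 2 of 9, or 22.2%, where 2.75% of all genes were lower by more than 3-fold. No member was higher by more than 3-fold, where 3.37% of all genes were. At 2-fold the same 2 members were lower, against 6.42% of all genes, and 0 were higher, against 7.97%. At 4-fold again the same 2 were lower, against 1.71%, and 0 were higher, against 1.73%. A lower signal from fewer cells that carry a transcript and from less transcript per cell cannot be told apart in RNA of a whole culture.

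**Figure D1:**
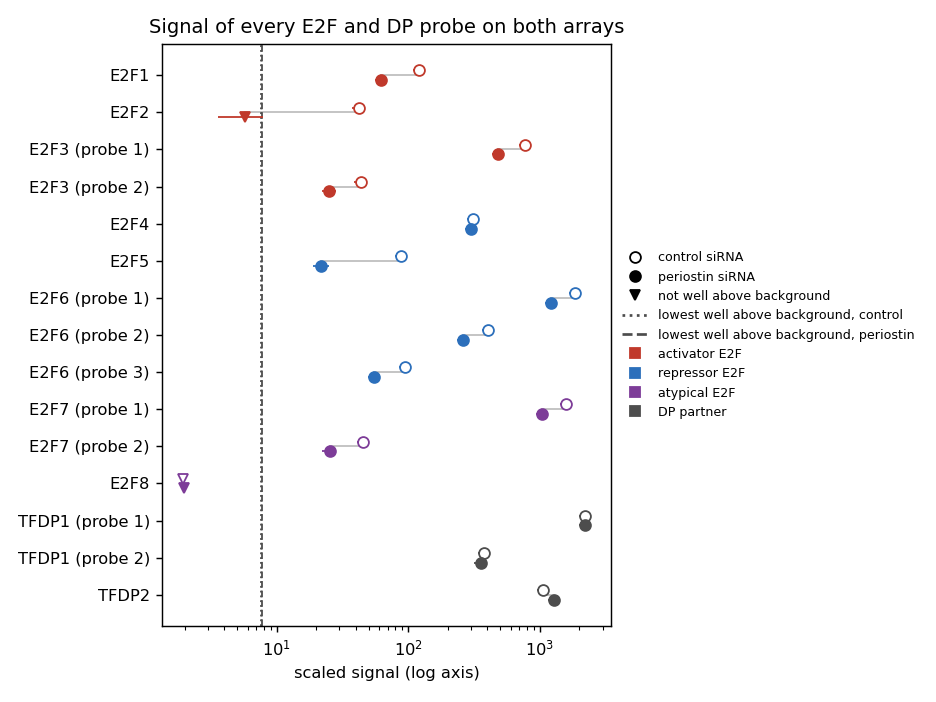
Scaled signal of each of the 15 probes (log axis) on the control siRNA array (open) and the periostin siRNA array (filled), with the propagated error of the spot, which is not drawn for E2F8, where it exceeds the signal. Triangles are signals not well above background, and the vertical lines mark the lowest signal well above background on each array, 7.55 and 7.77. E2F2 crosses these lines with periostin siRNA, E2F8 lies below them on both arrays, and levels of different probes cannot be compared.

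Among the activators, E2F1 was measured by 1 probe printed 10 times. Its scaled signal was between 103 and 139, with a median of 118, on the control siRNA array, and between 53.2 and 72.4, with a median of 62.7, on the periostin siRNA array. All 10 spots were lower with periostin siRNA and the spots of the arrays did not overlap. The spots repeat 1 array per condition and not a culture, and other probes that separate likewise were not counted. The log2 ratio was -0.95 ± 0.17 (SD over 10 spots), from -1.18 to -0.66 over the spots, so the mean signal with periostin siRNA was 51.6% of that with control siRNA.

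E2F2 was read by 1 spot, with a scaled signal of 41.9 with control siRNA and 5.72 with periostin siRNA. The second value was not well above background, so the fold was taken against 7.77, the lowest signal well above background on that array. By this floor E2F2 was at least 5.39-fold lower. The floor is not a detection limit, since CCNE2, at 8.56 on the same array, was not well above background either. Under another background correction, normexp, the bound of E2F2 was a log2 ratio of -0.63. On the scanner image the median pixel of this spot was 72.5 in the control and 36 after periostin siRNA, where the surrounding background was 21 and 20. The spot of E2F8, which carried no signal well above background, had median pixels of 32 and 33. E2F2 with periostin siRNA was therefore close to a spot without signal.

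E2F3 was read by 2 probes, each printed once. By the brighter probe the signal was 771 in the control and 479 after periostin siRNA, so the log2 ratio was -0.69, and the error propagated from the spots was 0.20. The dimmer probe gave 43.4 and 25.1, a log2 ratio of -0.79 with an error of 0.24. The probes differed by 0.10, less than either error. Thus all 3 activators had a lower signal, from -0.69 for E2F3 to a bound of -2.43 for E2F2.

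The repressors were less alike. E2F5, a partner of RBL2 in resting cells, was read by 1 spot with a signal of 88.6 with control siRNA and 21.9 with periostin siRNA. The log2 ratio was -2.02 with a propagated error of 0.24, a 4.05-fold lower signal, and both signals were well above background. The median pixel was 107 and 50 over a surrounding background of 23 on both arrays. For a spot of this brightness, the SD between spots of the log2 ratio, taken from 34 probes printed 10 times, was 0.23. Only 265 of the 16052 genes, or 1.65%, had a ratio as low.

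E2F4, the other pocket-protein repressor, had signals of 312 and 298 on its 1 spot, a log2 ratio of -0.07 with an error of 0.20. Its difference between the arrays was thus smaller than the spot error. The SD between spots at this brightness was 0.09.

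E2F6, the pocket-independent repressor, had 3 probes, each printed once, and all were lower. The brightest gave signals of 1849 and 1214 and a log2 ratio of -0.61, the next gave 405 and 260 and a ratio of -0.64, and the dimmest, designed on another transcript, gave 95.1 and 55.1 and a ratio of -0.79. Each had a propagated error between 0.20 and 0.21. The 3 probes spanned 0.18 in log2 ratio and had an SD of 0.10 among them. At the brightness of the brightest probe the SD between spots was 0.06.

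Of the atypical members, E2F7 was read by 2 probes. The brighter had signals of 1576 and 1045, a log2 ratio of -0.59 with an error of 0.20, and the dimmer had signals of 45.5 and 25.3, a log2 ratio of -0.85 with an error of 0.23. Both were lower, and the 0.26 between them was close to the error of either. E2F8 was not well above background on either array, with signals of 1.94 and 1.99 on its 1 spot, so no ratio is given for it.

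**Figure D2:**
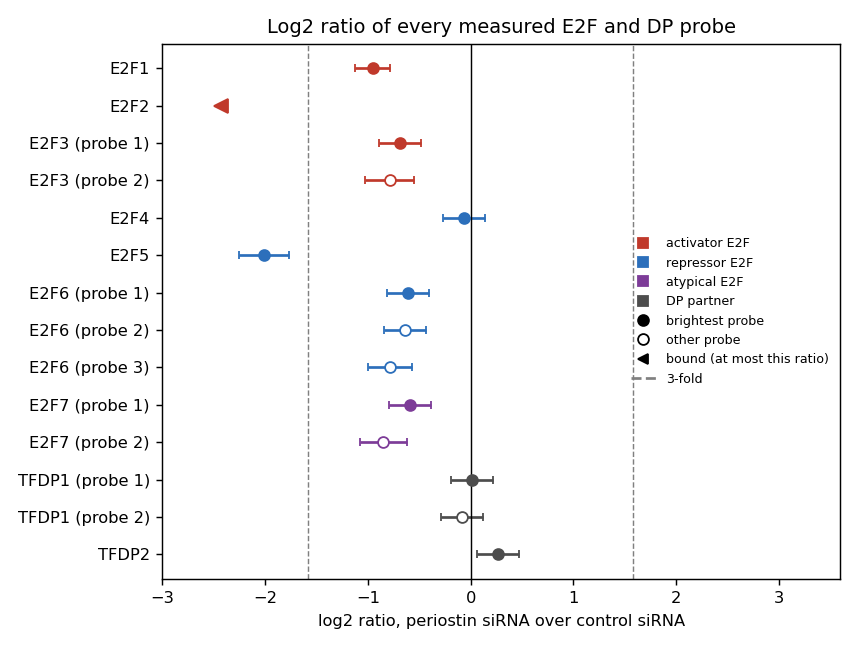
Log2 ratios (periostin siRNA over control siRNA) of the 14 probes with a value. Bars are the SD over 10 spots for E2F1 and the propagated error of 1 spot for the others, filled points are the brightest probe of a gene, and the arrow is the bound of E2F2. Every E2F probe lies below 0, E2F2 and E2F5 lie beyond the dashed 3-fold line, and the DP probes lie around 0.

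The DP partners did not share the lower signal. TFDP1, the main dimer partner of the E2Fs, had signals of 2195 and 2213 by its brighter probe, a log2 ratio of 0.01 with an error of 0.20, and 376 and 354 by its other probe, a ratio of -0.08. The sign of the ratio by the brighter probe was negative under scaling on the median, quantile normalization and loess, as was the mean over both probes. TFDP2, the other partner, had signals of 1066 and 1286 on its 1 spot and a log2 ratio of 0.27 with an error of 0.20. At the brightness of these 2 genes the SD between spots was 0.05 for TFDP1 and 0.06 for TFDP2.

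When the activators were set beside the repressor and atypical members, the classes overlapped. The 3 activators had a median log2 ratio of -0.95 and ranged from -2.43 to -0.69. The 4 repressor and atypical members with a value had a median of -0.60 and ranged from -2.02 to -0.07. Each class held 1 gene lower by more than 3-fold. E2F4 was the E2F nearest to 0. With 1 culture per condition the difference between the classes was not tested.

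In order of the log2 ratio the members ran E2F2, E2F5, E2F1, E2F3, E2F6, E2F7, E2F4, TFDP1 and TFDP2. The gaps that exceeded the combined spot error were the 1.06 between E2F5 and E2F1, against an error of 0.30, the 0.53 between E2F7 and E2F4, against 0.29, and, barely, the 0.27 between E2F1 and E2F3, against 0.26. E2F3 and E2F6 were 0.08 apart and E2F6 and E2F7 0.01, within the error, and E2F4, TFDP1 and TFDP2 likewise followed each other within it. The combined error took the SD over spots for E2F1 and the propagated error for the others, so which gaps exceed it depends on that choice. TFDP1 and TFDP2 were 0.26 apart, where the SD between spots at their brightness was 0.05 and 0.06. E2F2, at its bound, lay 0.41 below E2F5. The combined error of 0.61 came from an E2F2 signal not well above background, so this gap was not judged against it. Under normexp the bound of E2F2 was -0.63 and E2F5 gave -0.81, so the first place of E2F2 depends on the setting. Of all genes, 6.88% had a ratio as low as E2F1, 13.2% as low as E2F6, 13.5% as low as E2F7 and 40.1% as low as E2F4.

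**Figure D3:**
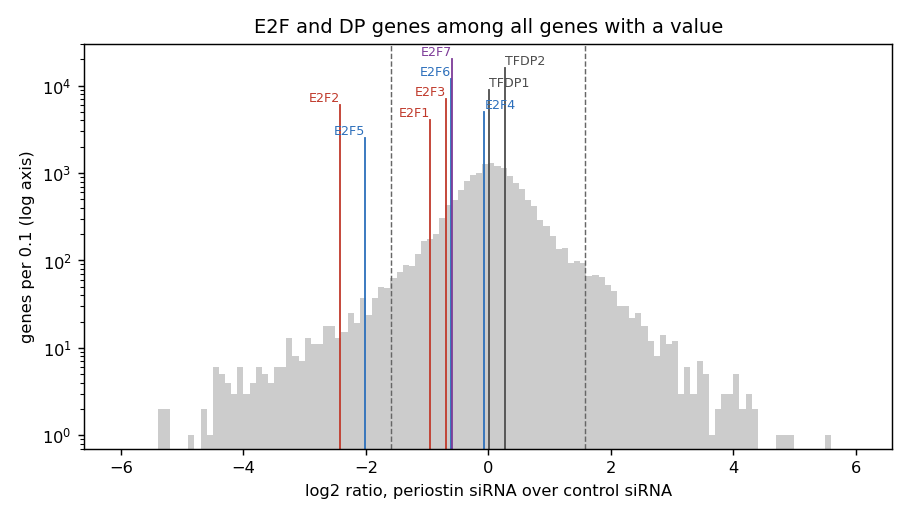
Number of genes per 0.1 of log2 ratio (log axis) over the 16052 genes with a value, with the 9 family members drawn as lines in the colour of their class and the 3-fold threshold dashed. E2F2 (a bound) and E2F5 stand in the lower tail, while E2F4, TFDP1 and TFDP2 stand near the peak.

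The ratios of the dim members were nearer to 0 under the normexp setting. It changed the background model, added an offset of 50, which by itself shrinks the ratio of a dim probe, and used the median pixel of a spot, and these changes were not run apart. There E2F5 gave -0.81 and the bound of E2F2 became -0.63. E2F1, E2F3, E2F6 and E2F7 then lay between -0.60 and -0.62, so that no member was past 3-fold while all 7 were still below 0. Of all genes, 1.19% were lower and 0.89% higher by more than 3-fold under normexp, against 2.75% and 3.37% as reported.

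**Figure D4:**
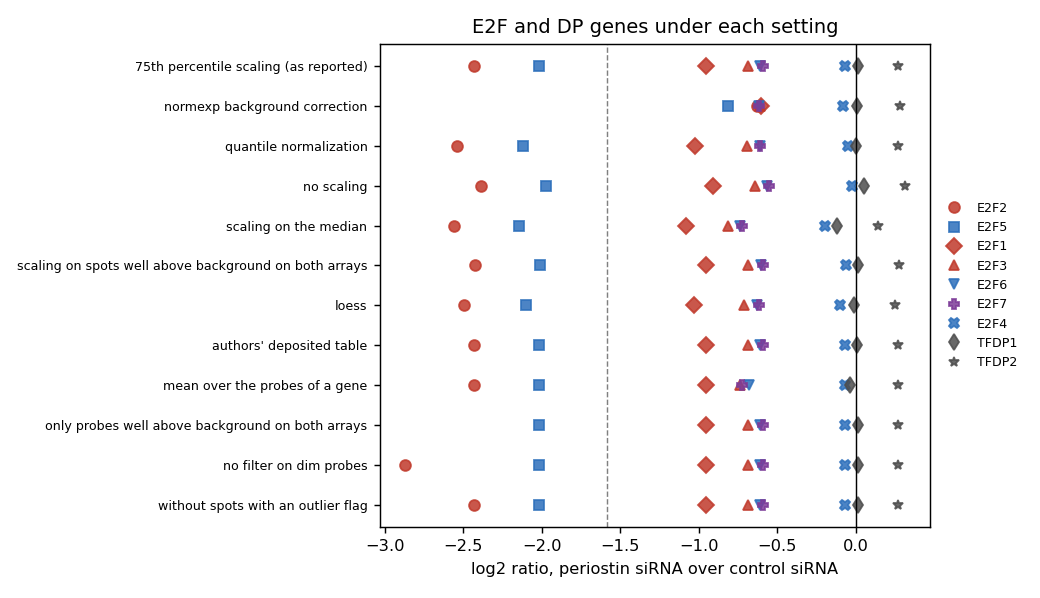
Log2 ratio of each measured member (colour by class, marker by gene) under the reported setting and 11 others, with the 3-fold threshold dashed. E2F2 is a bound except without a filter on dim probes, and has no value where a probe had to be well above background on both arrays. Under the normexp setting E2F2 and E2F5 lie inside the 3-fold line, and the E2F genes stay below 0 in each setting that gave them a value.

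The pocket proteins that bind the E2Fs differed among themselves. RB1, which holds the activators in check, had signals of 1721 and 905 and a log2 ratio of -0.93 ± 0.04 (SD over 10 spots). RBL1, itself a gene with E2F sites, had signals of 111 and 61.6, a log2 ratio of -0.86 with an error of 0.21, and its second probe gave -1.03. RBL2, the partner of E2F4 and E2F5 in resting cells, had signals of 426 and 540, a ratio of 0.34 with an error of 0.20. None of the 3 was past 3-fold.

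Upstream of the pocket proteins, 20 cyclins, kinases, kinase inhibitors and regulators of E2F turnover were read, with a median of -0.38. Of these, 17 were below 0, against 45.5% of all genes, and 5 were lower by more than 3-fold, against 2.75%. The 5 were CDK1, at -4.30, CCNA2, at -2.96, CCND2, at -2.09, CCNE2, which was at least 3.97-fold lower, and CDKN2C, at -1.62. CDK1 and CCNA2 drive S phase and mitosis and are themselves regulated through E2F and DREAM. CDKN2C encodes an inhibitor of CDK4 and CDK6. CDKN1C, the inhibitor p57, was the highest, with signals of 1669 and 3467 and a log2 ratio of 1.05. Among the genes of E2F turnover, CCNF, whose product marks E2F proteins for degradation, had a dim signal of 18.5 with control siRNA and was at least 2.38-fold lower, whereas SKP2 gave -0.24 and FZR1 -0.10.

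Of the 50 G1/S genes listed as E2F targets, 48 had a value, with a median of -0.72 on the log2 scale against 0.06 over all genes. The ratio was below 0 for 43 and above 0 for 5, where 45.5% of all genes were below 0. Lower by more than 3-fold were 9, or 18.8%, against 2.75% of all genes. Higher by more than 3-fold were 0, against 3.37%. The 9 were DTL, at -3.22, which targets the licensing factor CDT1 for degradation, CDC45, at -2.75, a part of the replicative helicase, RRM2, at -2.72, the small subunit of ribonucleotide reductase, the histone chaperone ASF1B, at -2.15, BRCA1, at -1.86, the clamp loader subunit RFC3, at -1.79 and by its second probe -2.04, the thymidine kinase TK1, at -1.62, and, as bounds, CCNE2 and ORC1, at least 3.97-fold and 3.26-fold lower. TK1 was bright, with signals of 16754 and 5452, whereas the control signals of the others past 3-fold ran from 25.3 for ORC1 to 555 for CDC45. With only probes well above background on both arrays, the median of the list was -0.54. Well-known targets lay at the other end of the list, with LIG1 at 0.75, PCNA at 0.42 by its brightest probe and above 0 by all 3, TYMS at 0.25 and CDC25A at -0.07. CDC6 was not well above background on either array, and POLA2 was not matched.

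**Figure D5:**
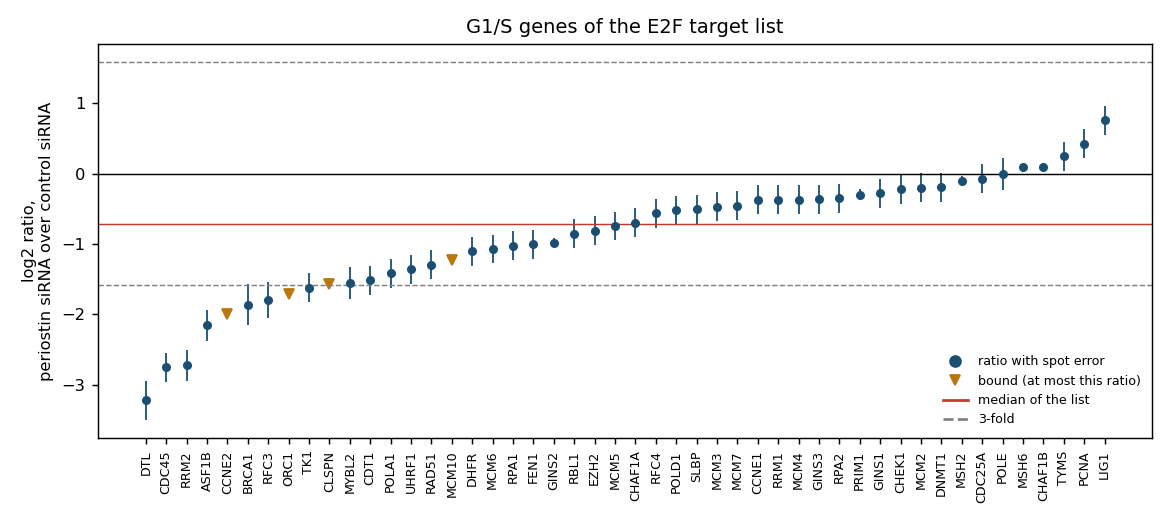
Log2 ratios (periostin siRNA over control siRNA) of the 48 measured genes of the G1/S target list, sorted, with the SD over 10 spots or the propagated spot error as bars and the 4 bounds as triangles. The red line is the median of -0.72 and the dashed lines are 3-fold, and 43 of the genes lie below 0.

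The E2F words of 8 letters were in the promoter windows of 24 of the 43 target genes that the RefSeq table held, or 55.8%, against 3.99% of all 27305 genes. Most measured target genes were below 0 both with a word, 18 of 22, and without one, 18 of 19, where 45.5% of all genes were. The 22 measured target genes with a word had a median log2 ratio of -0.46, with 2 lower by more than 3-fold, and the 19 without one had a median of -1.004, with 6 lower by more than 3-fold. Over the measured genes that the RefSeq table held, 757 with a word in a promoter had a median of 0.01. Of these, 2.91% were lower by more than 3-fold. The 11650 without one had a median of 0.06 and 2.57% were. With the shorter words the order of the target medians depended on the word. For TTGGCGC the 14 targets with it had a median of -0.83, with 3 lower by more than 3-fold, and the 27 without it -0.52, with 5. Over the measured genes that the RefSeq table held, 4.17% with it and 2.50% without it were lower by more than 3-fold. For TTTCGCG the 8 targets with it had a median of -0.46, with 0 lower by more than 3-fold, and the 33 without it -0.81, with 8. Over the same measured genes the shares went the other way, 2.13% with TTTCGCG and 2.60% without it. Outside the target list and the members, the shares were 3.67% of the genes with TTGGCGC and 1.89% of those with TTTCGCG. These are descriptions of 1 pair of arrays.

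Of 8 genes of the DREAM complex and its MYB and FOXM1 partners, which take over G2 and M phase genes, MYBL1 alone was lower by more than 3-fold, at -1.88, with its second probe at -1.31. That is 12.5% of the list, against 2.75% of all genes. MYBL2 gave -1.55 and FOXM1 -1.38. The core subunits were nearer to 0, from LIN52 at -0.51 to LIN37 at 0.34, with LIN54 at -0.40, RBBP4 at -0.10 and LIN9 at 0.03.

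Partners of E2F6 in its Polycomb complex had a median of -0.06 over 13 genes, of which 7 were below 0, where 45.5% of all genes were. The chromodomain protein CBX3 was lower by more than 3-fold, with signals of 13895 and 4260, a log2 ratio of -1.71 and a second probe at -2.09. The E-box binding MGA and MAX, which recruit the complex, gave -0.06 and -0.07, PCGF6 gave -0.46 ± 0.10 (SD over 10 spots), and RNF2 was the highest at 0.50, with a second probe at -0.02. Of 7 germline genes that E2F6 is known to keep silent, DDX4, MAEL, SLC25A31 and SMC1B were not well above background on either array. STAG3 gave 0.06 by its brightest of 3 probes and -1.44 by another, and TUBA3C and TUBA3D, which have near-identical sequences that a probe may not tell apart, gave -0.22 and 0.20.

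Of 7 apoptosis genes linked to E2F1, 5 were below 0, where 45.5% of all genes were, and none was past 3-fold. APAF1, which builds the apoptosome, gave -0.89 with an error of 0.21. BCL2L11, which encodes the BH3-only protein BIM, was the highest at 1.58, although another of its 3 probes gave 0.44, and BBC3 gave 0.85. TP73 was dim, at 11.1 and 9.92. The factors through which E2F4 and E2F5 act in multiciliated cells were nearly silent, with MCIDAS, GMNC, FOXJ1, MYB and DEUP1 not well above background on either array and CCNO well above it with periostin siRNA alone, at 11.7, at least 1.55-fold higher.

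The cells carried the markers of their label. All 8 fibroblast markers were well above background on both arrays, with summed signals of 351191 with control siRNA and 316250 with periostin siRNA, and ran from COL1A1 at -0.54 to LUM at 0.83. Of 5 epithelial markers 3 were measured and all were higher with periostin siRNA, with summed signals of 239 and 537 over the list. EPCAM went from 34.6 to 135, KRT19 from 167 to 342 and SFTPC from 33.8 to 53.3. CDH1 and KRT5 were not well above background. Of 6 immune markers 3 had a value and all were higher, with sums of 319 and 595 over the list and CD14 from 287 to 549. CD3E was a bound, at 7.25 and 9.55, and PTPRC had a value by 1 of its 5 probes, at 17.6 and 25.1. LAPTM5, MS4A1 and HLA-DRA were not well above background. Of 3 endothelial markers, with sums of 124 and 128, PECAM1 was not well above background. All 6 interferon response genes were higher, from ISG15 at 0.60 to IFI44L at 4.23, and 5 of them by more than 3-fold, where 3.37% of all genes were. The part of these differences in the E2F values was not tested.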

How the data were processed

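Total RNA of both cultures was labelled with Cy3 and hybridized to SurePrint G3 Human GE 8x60K v2 arrays, both on 1 slide read in 1 scan. The authors deposited the intensity of every spot as given by Agilent Feature Extraction, background-subtracted and not scaled between arrays, and a table of normalized intensity values whose method is not given in the sources used here. The file headers name version 11.5.1.1 of that program and the submitters' processing notes name 12.0.3.1. The array design was annotated on hg19.

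The log2 of the processed signal of 58717 non-control spots was set to a common 75th percentile, which was 372 for control siRNA and 383 for periostin siRNA. Scaled signals are on the scale of the geometric mean of these. Signals were well above background for 58.0% and 58.9% of the spots, no spot was saturated, and the number of arrays limits the precision. Repeated spots of a probe were averaged as log2 values, and the brightest probe stood for a gene. If that probe rose well above background with 1 siRNA only, its fold is a bound. The dim side was then set to its own signal or to the array's floor, whichever was higher, the floor being the weakest signal well above background (7.55 with control siRNA, 7.77 with periostin siRNA). Such a bound depends on this floor and is not a confidence limit. Genes were named through RefSeq accessions, which matched 65.1% of the spots.

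The gene lists were written from textbook knowledge, and the members, the lists and the alternatives were chosen with earlier results of these data known. All members are named, and of each list the genes past 3-fold, the lowest and the highest, with others chosen after their values were seen, except 1 gene that is not reported here. The steps were tested on simulated data. The analysis used Python 3.11.15, numpy 2.4.6, pandas 2.3.3 and, for the normexp correction (offset 50), quantile normalization and loess (span 0.3), R 4.3.3 with limma 3.58.1. Other experiments of the study were not used here.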

Additional observations from a re-analysis of the deposited data

How the results depend on the processing

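No paired analysis was possible because there was 1 array per siRNA, which also leaves no replicate to omit. The normexp background correction gave 0 members lower by more than 3-fold, where 1.19% of all genes were, against 2.75% as reported. It gave log2 ratios of -0.60 for E2F1 and -0.81 for E2F5, a bound of -0.63 for E2F2 and a median of -0.44 for the G1/S targets. It changed the background model, the offset and the brightness used together, and their parts were not tested. With only probes well above background on both arrays, E2F2 had no value and 1 member, E2F5, was lower by more than 3-fold, where 2.39% of all genes were. The G1/S median, reported as -0.72, was -0.85 with scaling on the median, -0.75 with loess, -0.73 with quantile normalization, -0.70 without a filter on dim probes, -0.69 as the mean over probes, -0.68 without scaling and -0.54 with only probes well above background on both arrays. It was -0.63 without CCNE2 and MYBL2. These genes of the list were also chosen for qRT-PCR. Of the 147 values computed under an alternative, the other 133 stayed within the spot error for a member, within 1.5 times for a count or equal to 2 decimals for the median, and 0 reversed a call. Some could not change, since no member spot carried an outlier flag and a gene with 1 probe keeps its mean over probes. A reversal meant a change of sign of a called gene or of the median, so calls lost under normexp are not counted as reversals. E2F1 ranged from -1.08 to -0.60 and E2F5 from -2.14 to -0.81, each lowest under scaling on the median, which shifted the median of all genes by -0.13. TFDP1 ranged from -0.12 to 0.06. The depth is that of 1 array per condition, and signals near background carry the largest errors.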
